A study of Mus musculus with 2 samples.

Results

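The B7 co-stimulation and checkpoint genes Cd80, Cd86, Icosl, Cd274, Pdcd1lg2, Cd28 and Havcr2 were examined in macrophages of the mouse colon with and without chemical colitis. Members were taken by gene symbol, as the probe sets that the platform annotation assigns to 1 of these 7 symbols. All 7 were on the array, with 8 probe sets (groups of probes read as 1 value), out of 19938 genes named in the same way. The study used 2 arrays. The control array held RNA of lamina propria macrophages (the connective tissue layer under the colon epithelium) from mice given plain drinking water for 5 days, and the DSS array that of cells from mice given 3% (wt/vol) dextran sulfate sodium in it for the same 5 days, a polymer that injures the colon lining. Cells on both arrays were sorted as CD45+, IAb+, CD11b+, F4/80+ and CD103-. The sources used here do not give the strain, genotype, age or sex of the mice, or how many were pooled for an array.

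As background, B7 proteins are surface molecules of antigen-presenting cells that tell a T cell how to answer the antigen it is shown. CD80 and CD86 bind CD28, which drives T cell activation, and CTLA-4, which restrains it. ICOS ligand binds ICOS, a relative of CD28. PD-L1 (Cd274) and PD-L2 (Pdcd1lg2) bind PD-1 and dampen T cell responses, and TIM-3 (Havcr2) is an inhibitory receptor of exhausted T cells that myeloid cells carry too. Gut macrophages present antigen to T cells in the lamina propria and normally favour tolerance to the gut flora.

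Cd28 differed most of the 7 genes and was 7.20-fold lower on the DSS array, while the ligand genes and Havcr2 all lay within 2-fold. The fold of Cd28 is not exact, as its DSS signal was below that array's median. Cd274, Havcr2 and Cd80 were 1.77-fold, 1.76-fold and 1.46-fold higher on the DSS array. Icosl was 1.30-fold lower, and Cd86 and Pdcd1lg2 differed by 1.11-fold and 1.13-fold. All 7 genes passed the signal rule, which asks that at least 1 of the 2 arrays be at or above its own median signal. Of the 7, 0 were at least 2-fold higher, against 3.99% of the 11163 genes past the rule, and 1 was at least 2-fold lower, against 3.03% of them. The median difference of the 7 (log2 signal, DSS minus control) was 0.18, beside -0.03 over the 11163 genes. It was 0.29 under loess centring (a smooth curve of the difference on the mean signal, subtracted from each difference), and 0.36 with both arrays required at or above their medians, which leaves out Cd28. With 1 array in each group there is no replicate error and no test, so every difference compares these 2 arrays and not the conditions.

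**Figure D1:**
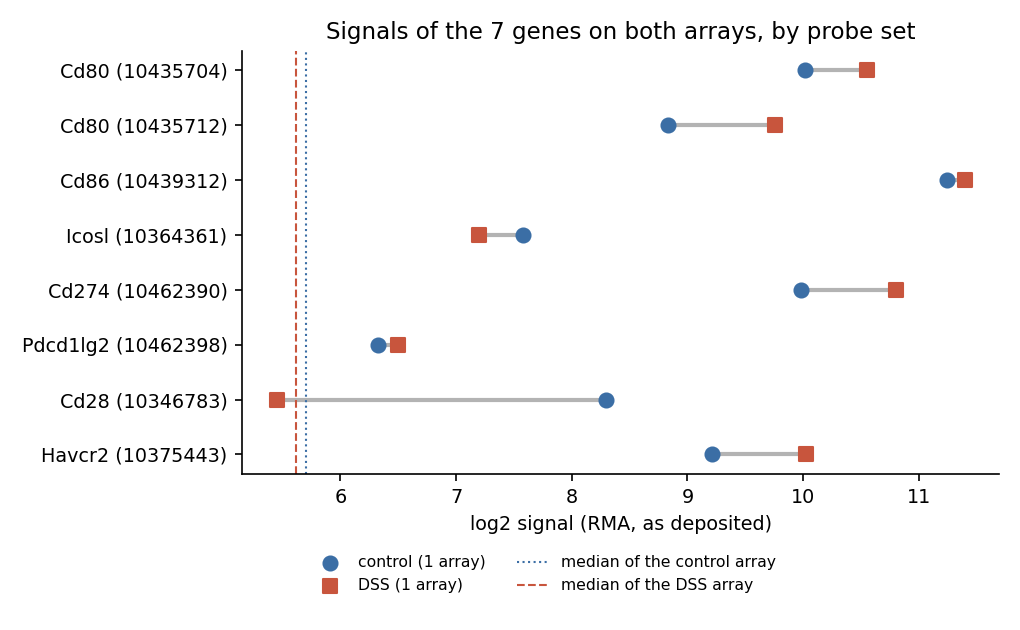
Log2 signal (x axis) of each of the 8 probe sets of the 7 genes (y axis) on the control array (circles) and the DSS array (squares), with each array's median as a vertical line. The gap is widest for Cd28, whose DSS signal of 5.45 is the only point left of the medians. Each point is 1 array, so there are no error bars.

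The spread over genes on these 2 arrays serves as a yardstick of size. It is not an error, as it does not measure variation between mice or between repeat arrays. Differences over the 11163 genes had a robust SD of 0.39. In 641 genes with several probe sets of different values the SD between probe sets of a gene, pooled over genes, was 0.28. Measured in robust SDs from 0, the differences were -7.26 for Cd28, 2.10 for Cd274, 2.08 for Havcr2 and 1.38 for Cd80. The other 3 genes lay between -0.96 and 0.45 robust SDs.

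**Figure D2:**
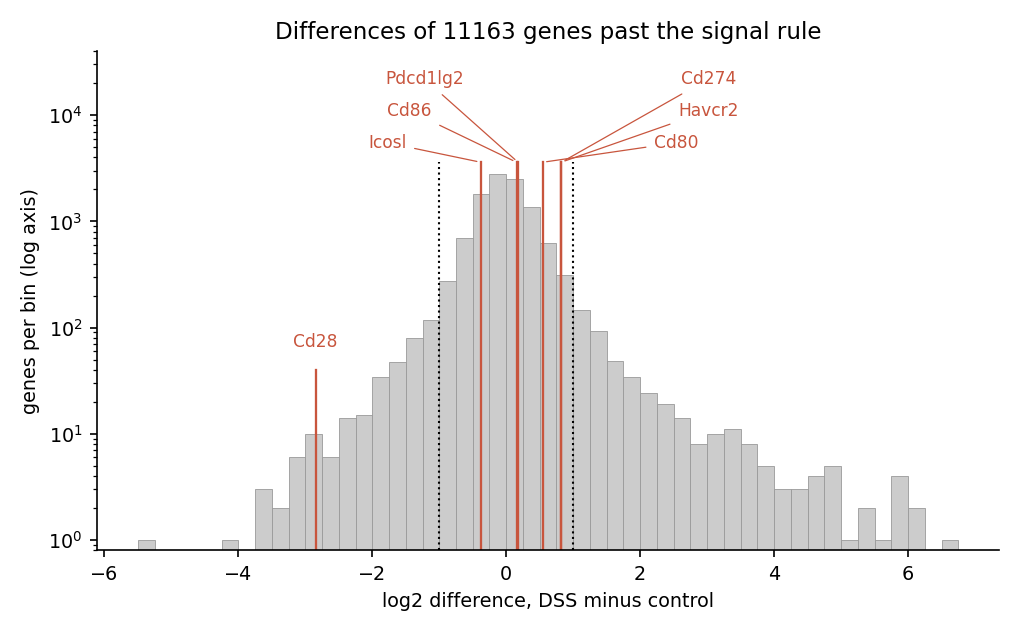
Number of genes per bin of 0.25 (y axis, log scale) by log2 difference, DSS minus control (x axis), for the 11163 genes past the signal rule, with the 7 genes as vertical lines and 2-fold as dotted lines. Cd28 lies in the lower tail at -2.85, and the other 6 genes lie between -0.38 and 0.82, inside 2-fold.

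Markers of other myeloid cells differed between the arrays too. Of 16 measured neutrophil markers, 15 were higher on the DSS array and Elane was lower, below both medians. Of the 15, 14 were at least 2-fold higher, and 10 had a control signal below that array's median and passed the signal rule through the DSS array alone. The mean signal of the 16 was 6.02 on the control and 9.89 on the DSS array. All 7 measured monocyte markers were at least 2-fold higher, with a mean signal of 7.06 and 11.10, and 1 had a control signal below that array's median. All 13 resident intestinal macrophage markers were lower, 6 of them by at least 2-fold, with a mean signal of 10.55 and 8.63. Of the 13, 1 had a DSS signal below that array's median. The antigens used for the sort lay on the side of the array medians that the gate implies, though their signals differed between the arrays. Ptprc (CD45), H2-Ab1 (IAb), Itgam (CD11b) and Adgre1 (F4/80) were above the medians of both arrays, and Itgae (CD103) was below both. The log2 differences, DSS minus control, were -0.82 for Adgre1, 0.60 for Itgam, 0.40 for Ptprc and 0.14 for H2-Ab1. That of H2-Ab1 turned to -0.04 under loess centring. The part of these shifts in the results on the 7 genes was not tested, and in sorted bulk RNA fewer cells of a type and less RNA per cell cannot be told apart.

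The ligand genes of CD28 both lay within 2-fold. Cd80, which encodes B7-1, is read by a pair of probe sets. Probe set 10435704, which stands for the gene because its mean signal is higher, read 10.01 on the control and 10.56 on the DSS array. Probe set 10435712 read 8.83 and 9.76, a difference of 0.93 or 1.90-fold, against 0.54 at the first. Both were higher on the DSS array and far above the array medians, and their differences were 0.39 apart. The annotation lists the curated transcript of Cd80 for the first and other sequence records alone for the second. Cd86, which encodes B7-2, read 11.25 and 11.40. Its difference of 0.16 was smaller than the spread between probe sets of a gene, and it turned to -0.01 under loess centring, so no direction is given for Cd86.

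Of the 11163 genes, 1228 (11.0%) had a difference at least as high as that of Cd80. Beside these ligands, Ctla4, the inhibitory receptor that competes with CD28 for them, read 7.45 on the control and 7.59 on the DSS array. Cd40, a co-stimulatory receptor of antigen-presenting cells, read 9.09 and 9.33, and Ciita, the master regulator of MHC class II genes, read 7.47 and 7.49.

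The genes of the PD-1 ligands lie close together, with 1 unmeasured gene between them in the RefSeq gene table, and their differences were 0.65 apart. Cd274, which encodes PD-L1, read 9.98 on the control and 10.80 on the DSS array, a difference of 0.82. Pdcd1lg2, which encodes PD-L2, read 6.32 and 6.50, a difference of 0.18 that is smaller than the spread between probe sets of a gene. Cd274 was far above both array medians, and Pdcd1lg2 was only 0.62 and 0.88 above them, in a range where RMA (the authors' normalisation) compresses differences. Of the 11163 genes, 625 (5.60%) were at least as high as Cd274, and 3370 (30.2%) at least as high as Pdcd1lg2. The gene of their receptor PD-1, Pdcd1, was below the medians of both arrays, at 5.33 and 5.24.

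The genes around this pair were looked up after the values were seen. Plgrkt, a plasminogen receptor gene on the other side of Cd274, read 8.74 and 9.29. Ric1, the nearest measured gene beyond Pdcd1lg2, read 8.61 and 9.49. Cd274 and its measured neighbours apart from Pdcd1lg2 therefore had differences of 0.55 to 0.88, and Pdcd1lg2 the smallest of the 4. Neutrophil and monocyte markers were higher on the same array, as given above, and their part in the difference of Cd274 was not tested.

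Interferon-gamma, acting through the kinases JAK1 and JAK2 and the factor IRF1 among others, is a known inducer of PD-L1. Of 13 genes of the interferon-gamma, STAT and NF-kB list past the signal rule, 1 reached 2-fold in the higher direction on the DSS array and 0 in the lower, and the median difference was 0.10, beside -0.03 over all genes. The higher one was Jak2, at 9.55 and 10.63, a difference of 1.08 that was 0.955 under loess centring, below 2-fold. Irf1 read 8.85 and 9.69, and Ifngr1 and Ifngr2, the chains of the interferon-gamma receptor, read 11.12 and 11.42, and 9.35 and 9.64. Ifng itself was below the medians of both arrays, at 5.29 and 5.50. Of the IL-4 arm, known for inducing PD-L2, the genes Il4ra and Stat6 differed little. Il4ra read 10.94 and 10.87, with a sign that turned under median centring, and Stat6 read 8.34 and 8.44. Relb had the lowest difference of the list, -0.15. The part of these pathways in the differences of Cd274 and Pdcd1lg2 was not tested, and RNA signals of their genes do not measure pathway activity.

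The stretches just before the transcription starts of the 3 genes with the highest differences are shown, from RefSeq on GRCm38.p6. The 3 were picked by size of difference alone, and shared regulation was not tested. Each is the 250 bases before the start, on the plus strand, 5′ to 3′. Capitals mark matches to the motifs named below.
Cd274, chr19:29367188-29367437: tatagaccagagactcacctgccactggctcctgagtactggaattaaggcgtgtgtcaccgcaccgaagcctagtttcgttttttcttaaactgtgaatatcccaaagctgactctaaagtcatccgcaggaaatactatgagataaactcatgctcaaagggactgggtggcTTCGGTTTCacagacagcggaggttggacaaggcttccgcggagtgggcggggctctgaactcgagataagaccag
Havcr2, chr11:46454681-46454930: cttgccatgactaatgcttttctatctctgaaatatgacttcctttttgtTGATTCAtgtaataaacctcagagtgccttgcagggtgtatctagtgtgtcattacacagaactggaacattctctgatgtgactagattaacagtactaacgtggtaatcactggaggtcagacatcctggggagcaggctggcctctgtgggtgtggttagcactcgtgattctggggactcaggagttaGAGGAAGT
Cd80, chr16:38458683-38458932: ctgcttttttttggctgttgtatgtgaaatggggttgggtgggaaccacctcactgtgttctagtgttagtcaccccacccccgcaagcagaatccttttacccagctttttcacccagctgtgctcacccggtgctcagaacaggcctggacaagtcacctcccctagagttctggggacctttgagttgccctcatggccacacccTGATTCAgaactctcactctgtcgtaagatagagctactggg

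The motifs were searched on both strands in the 5 members that the promoter table holds, these 3 with Pdcd1lg2 and Icosl. The IRF element GAAANNGAA, bound by interferon regulatory factors, was matched in Cd274 alone, starting 76 bases before the start. Of 32851 promoter windows in the table, 7.13% hold it, and with 1 more A required at its 3′ end 2.98% do and Cd274 does not. The loose AP-1 pattern TGANTCA, with any base at its centre, was matched in Havcr2 and Cd80, 200 and 42 bases before the start. Of the windows, 6.75% hold it. Both marked stretches have T at the centre, and a form asking for C or G there was not searched. The PU.1 element GAGGAAGT, of the factor that myeloid cells depend on, was matched in Havcr2, 8 bases before the start, and 2.44% of windows hold it. The gamma-interferon activated site TTCNNNGAA (7.02% of windows) and the NF-kB element GGANTTTCC (1.07%) were matched in 0 of the 5. No 2 of these motifs overlapped in the sequences shown. A match is a description of letters and not a bound site, and the missing letters say nothing of these factors.

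Icosl, the ligand of ICOS, had a lower signal on the DSS array. It read 7.58 on the control and 7.20 on the DSS array, a difference of -0.38 that is about the size of the spread over all genes. Of the 11163 genes, 2048 (18.3%) were at least as low. Its receptor gene Icos read 6.82 and 6.56, a difference of -0.25 in the same direction. B cells, another source of ICOS ligand, were followed by the B and plasma cell markers, whose mean signal over 12 measured genes was 6.65 and 6.76. Of these, 8 passed the signal rule, among them the B cell marker Cd79b, at 6.71 and 6.82. The B cell markers Ms4a1, at 4.23 and 4.99, Cd79a, Pax5 and Cr2 were below the medians of both arrays.

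Cd28, the receptor for CD80 and CD86, is best known on T cells and is also carried by plasma cells. Its probe set, 10346783, read 8.29 on the control and 5.45 on the DSS array, a difference of -2.85. The control signal was 2.59 above that array's median and the DSS signal 0.17 below its array's median, so the DSS signal cannot be told from background and the fold is not exact. With every signal under an array's median set to that median, an alternative chosen after seeing the data, the difference was -2.67. Cd28 included, 18 of the 11163 genes (0.161%) were at least as low.

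The relatives of Cd28 in the same gene cluster did not share its difference. Ctla4, the nearest measured gene on one side of it, and Icos had differences of 0.13 and -0.25. On the other side, Raph1, which encodes the cytoskeletal regulator lamellipodin, was the nearest measured gene and was 2.66-fold lower, at 8.996 and 7.586. The genes most like Cd28, by the distance between their pairs of log2 signals over the 2 arrays, were Chp2, a calcineurin-like protein gene, at 8.48 and 5.29, and Cdr2, at 8.01 and 5.57. Their distances from Cd28 were 0.24 and 0.31, and signals of different probe sets are not amounts that can be compared. As with Cd28, the DSS signals of Chp2 and Cdr2 were below that array's median.

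Most T cell markers had signals below the array medians. Of 15 measured T cell markers, 13 were below the medians of both, among them the antigen receptor chains Cd3d (4.41 and 4.96), Cd3e (5.39 and 5.50) and Cd3g (4.55 and 4.95), and Cd8a (5.32 and 5.32). None of the 3 Cd3 chains was lower on the DSS array. Their control signals were already below that array's median, where a fall could hardly be read. The mean signal of the 15 was 5.36 on the control and 5.20 on the DSS array, while the median of their differences was 0.004. The other 2 were at least 2-fold lower on the DSS array. Cd4, which mouse gut macrophages can carry as well as T cells, read 9.04 and 7.39, and Cd2, an adhesion receptor of lymphocytes, read 7.38 and 6.11.

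**Figure D3:**
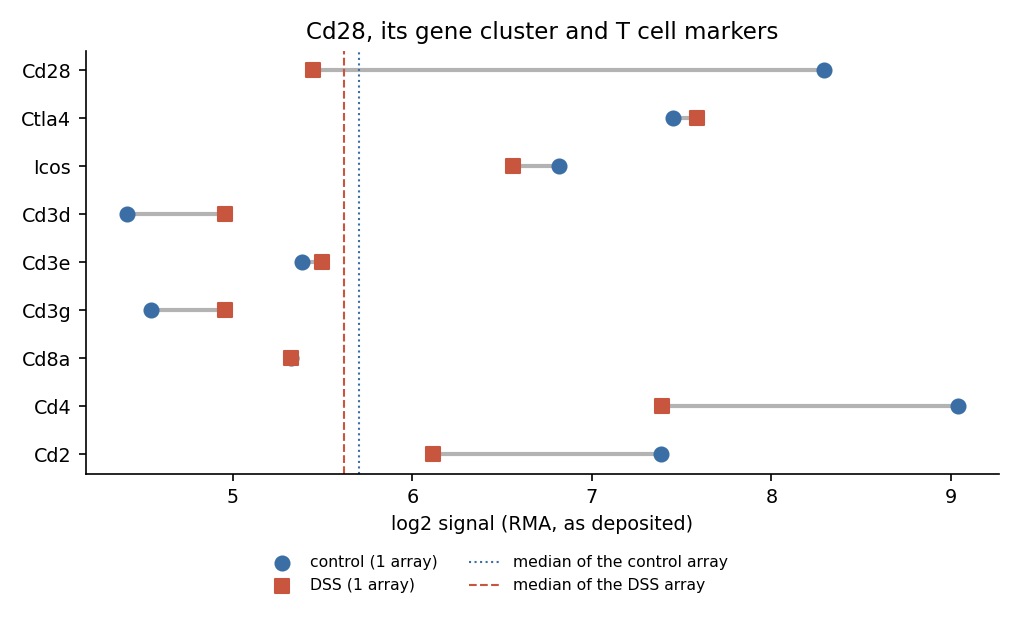
Log2 signal (x axis) of Cd28, of its cluster neighbours Ctla4 and Icos, and of T cell markers (y axis) on the control array (circles) and the DSS array (squares), with each array's median as a vertical line. Cd28, Cd4 and Cd2 have clearly lower DSS signals, while Cd3d, Cd3e, Cd3g and Cd8a stay left of the medians on both arrays.

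Markers of other cells that could carry Cd28 moved in different ways. Tnfrsf17, the plasma cell survival receptor BCMA, was lower, at 6.44 and 5.28, with a DSS signal below that array's median and so no exact fold, and the syndecan gene Sdc1 was 2.47-fold higher, at 6.15 and 7.45. Jchain, the joining chain of secreted antibody, read 10.79 and 10.52. Among NK and innate lymphoid markers, Il7r was 2.67-fold lower, at 9.44 and 8.02, Klrk1 was 2.86-fold higher, at 5.84 and 7.35, and 7 of 10 measured were below both medians. Gzma was higher, at 4.69 and 6.37, from a control signal below that array's median, so no exact fold is given. The resident macrophage markers, among them Vsig4 (10.11 and 4.82), Folr2 (9.33 and 5.71), Lyve1 (10.92 and 7.31) and Cd163 (10.74 and 7.43), were lower on the same array as Cd28. Vsig4 had a DSS signal below that array's median, so its difference is not exact. The part of any of these cells in the difference of Cd28 was not tested.

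The signalling genes that CD28 and PD-1 use were not lower with Cd28. Of 8 genes of that list past the signal rule, 1 reached 2-fold in the higher direction on the DSS array and 0 in the lower, with a median difference of 0.20. The higher one was Fyn, a Src family kinase, 4.04-fold, at 6.81 and 8.83. Vav1, an exchange factor that acts downstream of CD28, read 8.24 and 9.02. Ptpn6 and Ptpn11, which encode the phosphatases SHP-1 and SHP-2 that PD-1 recruits, read 9.76 and 10.30, and 8.40 and 8.17. Pik3r1, the p85 subunit of PI3 kinase, had the lowest difference, -0.38. Prkcq, the T cell kinase PKC-theta, was below the medians of both arrays.

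Havcr2, which encodes TIM-3, differed in the same direction as Cd274 and by nearly the same amount. It read 9.21 on the control and 10.03 on the DSS array, a difference of 0.82 that 636 of the 11163 genes (5.70%) reached or exceeded. Both signals were well above the array medians. Med7, a subunit of the Mediator complex and the nearest measured gene on one side of Havcr2, read 9.36 and 10.15, and the difference of 0.79 is close to that of Havcr2. The nearest on the other side, BC053393, was below the medians of both arrays.

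Of the TIM relatives of Havcr2, 1 passed the signal rule. Timd4, the phosphatidylserine receptor TIM-4 of long-lived macrophages, had the largest difference of its list, -3.17, at 9.50 and 6.33, and Havcr1 and Timd2 were below the medians of both arrays. Among genes of TIM-3 ligands, Ceacam1 was 2.09-fold higher, at 7.996 and 9.060, and just under 2-fold under loess centring (a difference of 0.9996). Lgals9, which encodes galectin-9, read 9.08 and 9.40. Hmgb1 read 7.51 and 7.77. Bag6, whose protein binds the tail of TIM-3, read 8.37 and 8.19. Of 5 genes of this list past the signal rule, 1 reached 2-fold in each direction, and their median difference was 0.26. Timd4 is a resident macrophage marker, and all 13 markers of that list were lower on the DSS array.

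**Figure D4:**
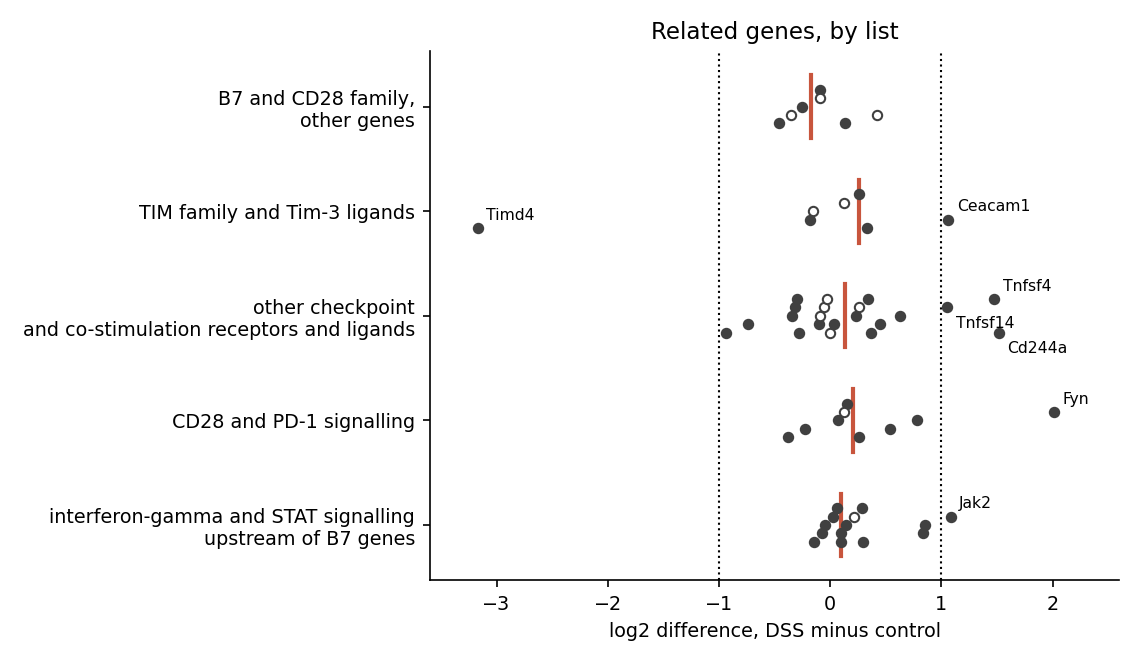
Log2 difference, DSS minus control (x axis), of each measured gene of 5 lists of related genes (y axis), with filled points for genes past the signal rule, open points for genes below both array medians, a vertical bar at the list's median and dotted lines at 2-fold. Most points lie within 2-fold, and Timd4 at -3.17 and Fyn at 2.01 lie furthest out.

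The other B7 and CD28 family genes differed little. Of 7 measured, 4 passed the signal rule. Of these 0 were 2-fold apart, beside 3.99% higher and 3.03% lower over all genes past the rule. The median difference of the 4 was -0.17. Cd276, which encodes B7-H3, had the largest, at 8.02 and 7.56, and Ctla4 was the only one of the 4 with a higher DSS signal. Vsir, which encodes VISTA, read 8.30 and 8.21. Vtcn1 (B7-H4), Btla and Pdcd1 were below the medians of both arrays.

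Among other checkpoint and co-stimulation genes, 3 of 16 past the signal rule reached 2-fold in the higher direction on the DSS array and 0 in the lower, with a median difference of 0.14 that was -0.003 under loess centring. Cd244a, the receptor 2B4 of NK and myeloid cells, was 2.86-fold higher, at 8.30 and 9.82. Tnfsf4, which encodes OX40 ligand, was 2.78-fold higher, at 4.45 and 5.93, and its control signal, below that array's median, cannot be told from background. Tnfsf14, which encodes the HVEM ligand LIGHT, was 2.07-fold higher, at 6.07 and 7.13. Cd200r1, an inhibitory receptor of macrophages, lay furthest the other way, at 6.945 and 6.004. Neutrophil and monocyte markers were higher on the same array as these 3 genes, and their part was not tested.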

How the data were processed

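The 1 table the authors deposited holds log2 signals of 2 arrays, with 35556 probe sets, and RMA (background correction, quantile normalisation and probe summary) is named, with no version, in the submitters' processing notes. Per the labels' protocols, 100 ng of RNA was made into biotin-labelled cRNA. The sources used here give neither RMA settings nor a genome build. RMA compresses dim differences and hides a global shift. The table has no detection calls. A batch cannot be told apart from the treatment.

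Values were used as deposited. The platform annotation gave 21789 probe sets 1 symbol, 1621 several and 12146 none. A gene took its 1-symbol probe set with the highest mean signal. Array medians (5.70 control, 5.62 DSS) rest on 28939 probe sets, without those numbered below the lowest annotated one. All 7 members matched RefSeq by Entrez identifier. Folds are 2 raised to the size of a difference, and genes were counted at 2-fold. No test was possible with 1 array per group, and the number of arrays limits the precision.

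The members, the gene lists and the rule for named genes were chosen with earlier results of these arrays known. The rule named every member, up to 4 genes of a list at 2-fold plus the furthest the other way, and the 2 genes most like a member that was 2-fold apart. Related genes within 2-fold that are named for their role, single markers, nearest measured neighbours and motifs were chosen after values were seen. The rule also took the genes next to each member on the chromosome, and 2 of these 14 had a probe set. Some genes of the lists are not reported here. Steps were tested on simulated arrays. Python 3.11.15, numpy 2.4.6, pandas 2.3.3, statsmodels 0.14.6 and matplotlib 3.10.9 were used.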

Additional observations from a re-analysis of the deposited data

How the results depend on the processing

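Alternatives were median and loess centring (span 0.4), the mean or the lowest probe set of a gene, no signal rule or both arrays at or above their medians, a floor at the 25th percentile, sizes of 1.5-fold and 3-fold and, chosen after seeing the data, a floor at each array's median. Of 90 values recomputed, 87 stayed within 0.28 of the reported value (for counts, within 1.5 times), and 3 moved further. At 1.5-fold, 2 members (Cd274 and Havcr2) counted as higher, beside 1100 of 11163 genes. With both arrays required at or above their medians, 0 members counted as lower, because Cd28 is then left out. Cd80 had a difference of 0.93 with its lower probe set. Cd28 ranged from -2.85 to -2.67, and Cd274 and Havcr2 from 0.69 to 0.91 and 0.70 to 0.90. The median of the 7 ranged from 0.18 to 0.36. The sign of Cd86 (-0.01) and of the median of the other checkpoint list (-0.003) turned under loess centring, and that median was 0 without a signal rule. Signals under the array medians limit the differences of Cd28, Tnfsf4, Tnfrsf17, Gzma, Vsig4, Chp2, Cdr2, 10 neutrophil markers and 1 monocyte marker, Chil3. No array could be left out, and no paired analysis was possible because each group has 1 array.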
